A study of Mus musculus with 6 samples.

Results

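Zscan4 and 7 other genes or gene families of the 2-cell mouse embryo were followed on 6 Affymetrix arrays of A3-1, a line of mouse embryonic stem (ES) cells. A row here is a probe set of the array, with 1 value per array. The rows were chosen by their annotated symbols: any row with a symbol that starts with Zscan4, Tcstv, Tdpoz or Usp17l, or with Gm4340, Zfp352, Tmem92 or Pramel6. This gave 24 rows of the 23410 that carry a gene symbol. They hold 23 symbols that fit the rule and 35 symbols in all, because the Gm4340 rows also carry other predicted genes. The symbols of several near-identical copies are carried by 11 rows. Such a row is given as 1 row, and it cannot say which copy its RNA came from. The genes were chosen from results of these same arrays, so their values and differences are a description, no test is given for them, and nothing is supported with them.

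The study measured mRNA in 3 groups of 2 arrays. The siLin28a group was A3-1 cells given a small interfering RNA (siRNA) against Lin28a for 48 h, the siGFP group was A3-1 cells given a control siRNA against green fluorescent protein for 48 h, and the untreated group was A3-1 cells without siRNA. All cells grew with serum and LIF, the cytokine that keeps mouse ES cells undifferentiated, and A3-1 is a single line with no allele named in the labels. Each siRNA group received a single siRNA, so an effect of losing Lin28a and one of that siRNA's own sequence cannot be told apart.

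The 2-cell stage is when the mouse embryo switches on its own genome. A burst of transcription then includes Zscan4, the Tdpoz and Usp17l families, Zfp352, Tcstv genes and the endogenous retrovirus MERVL, whose long terminal repeats serve as promoters for many genes of this stage. In ES cell cultures a small and changing minority of cells passes through a state that uses the same genes, called 2-cell-like. The homeobox factor Dux switches this state on, Dppa2 and Dppa4 act upstream of Dux, and chromatin repressors such as Trim28, Setdb1, Kdm1a and the CAF-1 subunits Chaf1a and Chaf1b hold it down. Zscan4 proteins carry a SCAN domain and zinc fingers and are known for telomere lengthening by recombination and for genome stability in ES cells. Because a culture is a mixture, a bulk array cannot tell a larger share of cells with a transcript apart from more of it per cell.

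The arrays had medians between 5.2 and 5.3 on the log2 scale of the deposited values. Their upper quartiles were 7.0 and 7.1 in siLin28a and 7.2 in every siGFP and untreated array. The targeted gene was checked first. Lin28a, an RNA-binding protein that blocks maturation of let-7 microRNAs, had 7.4 and 7.4 in the siLin28a arrays, against 9.1 and 9.4 in the siGFP arrays and 9.1 and 9.4 in the untreated arrays. Both siLin28a arrays were below all others, with a log2 fold change of -1.85 over siGFP (SE 0.16). This did not pass limma's test after adjustment over all 23410 rows (adjusted p 0.512). No row passed it: limma called 0 rows (0%) for siLin28a over siGFP, with 949 at an unadjusted p under 0.05. It likewise called 0 (0%) for siGFP over untreated, with 825, and 0 (0%) for siLin28a over untreated, with 1508. The 19 paired nucleotides of the siRNA that defines the siLin28a group are shown as its 2 strands, without the 2 deoxythymidines that end each.
siLin28a strand 1: gcagaagcgaagauccaaa
siLin28a strand 2: uuuggaucuucgcuucugc

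All 3 Zscan4 rows were higher in siLin28a cells than in siGFP cells by between 3.61-fold and 3.73-fold, and siGFP and untreated cells differed by at most 0.05 on the log2 scale. Each of the 3 rows carries the same 5 symbols, Zscan4a, Zscan4b, Zscan4c, Zscan4d and Zscan4f. RefSeq lists Zscan4a as a transcribed pseudogene and the other 4 as protein coding, all on chromosome 7. Zscan4c is the copy best known in ES cells, and Zscan4d the one best known in the 2-cell embryo.

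Row 10549964 had 6.0 and 6.8 in the siLin28a arrays, against 4.6 and 4.5 in the siGFP arrays and 4.7 and 4.4 in the untreated arrays. Row 10549972 had 6.1 and 6.9 in siLin28a, against 4.6 and 4.6 in siGFP and 4.8 and 4.5 in untreated. Row 10559978 had 6.7 and 7.9 in siLin28a, against 5.4 and 5.4 in siGFP and 5.6 and 5.3 in untreated. In all 3 rows both siLin28a arrays lay above the 4 others, and the lower siLin28a array stood above the highest of those by 1.3, 1.3 and 1.1. The siGFP arrays lay between the untreated ones in all 3 rows. The log2 fold change of siLin28a over siGFP was 1.85 (SE 0.27) for row 10549964, 1.90 (SE 0.27) for row 10549972 and 1.90 (SE 0.37) for row 10559978.

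The siLin28a arrays were also the pair farthest apart. Averaged over the 3 rows, Zscan4 was 6.73 ± 0.66 in siLin28a, 4.85 ± 0.02 in siGFP and 4.88 ± 0.21 in untreated cells (SD, n = 2 arrays each). Replicate 2 of siLin28a exceeded replicate 1 by 0.93, while replicate 2 minus replicate 1 was -0.03 in siGFP and -0.30 in untreated cells. That gap was widest in row 10559978, at 1.2. Without siLin28a replicate 1 the difference from siGFP in that row was 2.50, and without siLin28a replicate 2 it was 1.30. Without siLin28a replicate 1 or 2 it was 2.25 and 1.45 in row 10549964, and 2.30 and 1.50 in row 10549972.

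**Figure D1:**
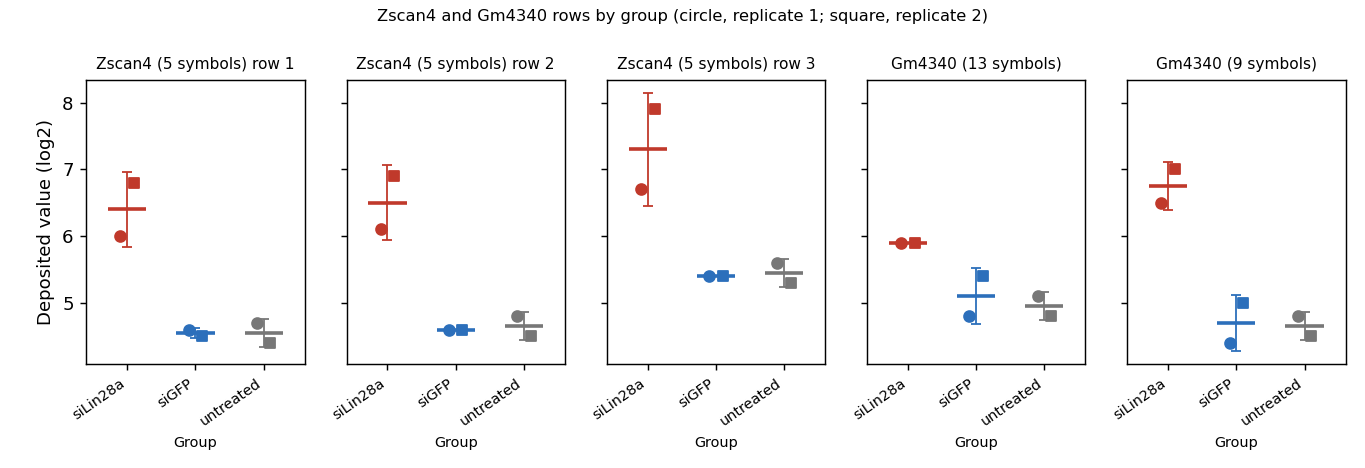
Deposited values (vertical axis, log2) of the 3 Zscan4 rows and the 2 Gm4340 rows in siLin28a, siGFP and untreated arrays. Circles are replicate 1, squares are replicate 2, bars are the mean and whiskers the SD of 2 arrays. Both siLin28a arrays lie above the 4 others in all 5 panels, and the siLin28a pair is widest in Zscan4 row 3, at 6.7 and 7.9.

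The promoters of the Zscan4 copies are close to one another, and one window is shown because the Zscan4 rows were higher in siLin28a cells. These rows all carry the same symbols, so they do not show that separate copies were higher together. RefSeq promoter windows on GRCm38.p6 (250 bases before to 50 after the start) were found for Zscan4b, Zscan4c, Zscan4d and Zscan4f, and any pair of them was between 95.3% and 99.3% identical over the aligned bases. All 4 held the letters of a TATA box, TATAAAA, searched on both strands. These letters were in 7 of the 18 windows found for genes of the rule (17 genes), the others being Usp17lb, Usp17lc and Usp17ld, and in 5.48% of all 32851 windows. Copies of a family have similar windows and are not separate cases, so nothing is read from this share. A run of letters is also not a measured TATA box. The window of Zscan4c (chr7:11005495-11005794, plus strand) is shown with the TATAAAA letters in capitals, 47 bases before the start.
Zscan4c promoter: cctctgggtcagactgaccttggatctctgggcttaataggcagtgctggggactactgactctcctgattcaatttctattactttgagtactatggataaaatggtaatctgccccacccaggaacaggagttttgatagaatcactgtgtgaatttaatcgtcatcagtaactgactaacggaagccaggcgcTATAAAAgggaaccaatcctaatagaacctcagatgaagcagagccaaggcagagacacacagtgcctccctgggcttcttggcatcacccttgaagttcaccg

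The other rows that stood apart belong to Gm4340, a family of tandem predicted genes on chromosome 10. The row with 9 symbols was 4.14-fold higher in siLin28a than in siGFP cells, and the row with 13 symbols 1.74-fold. All 9 symbols of the first row are among the 13 of the second, so the rows are not separate genes.

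Row 10366180, with 9 symbols, had 6.5 and 7.0 in siLin28a, against 4.4 and 5.0 in siGFP and 4.8 and 4.5 in untreated arrays. Both siLin28a arrays were above the 4 others by at least 1.5. Its log2 fold change of siLin28a over siGFP was 2.05 (SE 0.26), the highest of all 23410 rows, and it lay between 1.75 and 2.35 when any 1 array of those groups was left out.

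Row 10366070, with 13 symbols, had 5.9 and 5.9 in siLin28a, against 4.8 and 5.4 in siGFP and 5.1 and 4.8 in untreated arrays. The siLin28a arrays were again above the 4 others, here by 0.5. Its log2 fold change over siGFP was 0.80 (SE 0.22), the rank of 22 from the highest. That value depended on the siGFP pair, at 0.50 without siGFP replicate 1 and 1.10 without siGFP replicate 2.

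Unlike Zscan4, the Gm4340 rows did not show their widest replicate gap in siLin28a cells. Replicate 2 minus replicate 1 was 0.5 in siLin28a for the row with 9 symbols and 0.0 for the row with 13, against 0.6 in siGFP for both and -0.3 in untreated cells for both. All 3 Zscan4 rows had the same -0.3 in untreated cells.

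The Gm4340 promoter window is shown because it alone among the 18 held the core letters of the motif bound by mouse Dux, GATTNAATC, searched on both strands. These letters were in 88 of 32851 windows (0.268%). RefSeq windows of 6 genes on the Gm4340 rows, Gm4340 included, were 100% identical over the aligned bases. The window of Gm4340 (GRCm38.p6, chr10:104193792-104194091, plus strand) has the matching letters in capitals, 137 bases before the start. A match is a run of letters and not a measured site.
Gm4340 promoter: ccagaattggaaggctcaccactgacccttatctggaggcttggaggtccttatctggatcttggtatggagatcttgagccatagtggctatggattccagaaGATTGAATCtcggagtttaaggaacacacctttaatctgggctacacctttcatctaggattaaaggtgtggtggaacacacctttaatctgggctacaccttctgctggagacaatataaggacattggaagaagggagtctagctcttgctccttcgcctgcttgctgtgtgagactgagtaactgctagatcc

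The Tdpoz family, which encodes proteins with TRAF and BTB/POZ domains from a cluster on chromosome 3, showed small differences at low values. Its rows averaged 3.29 to 3.68 per array, below the array medians of 5.2 to 5.3. They are not shown to be above background, so a weak response cannot be told from an undetected transcript. Of its 10 rows, 8 were higher in siLin28a than in siGFP cells, 1 was lower and 1 was equal, with a median log2 fold change of 0.35 and a range of -0.25 to 0.45. In 7 of the 10 both siLin28a arrays were above both siGFP arrays, where 9.03% of all tested rows were, and nothing is read from this because the genes were chosen with the contrast in view. The rows are fewer than they look. Of the 4 rows that each carry Tdpoz7, Tdpoz9, Tdpoz5 and Tdpoz1, 10499971 and 10499975 held the same values in every array, and so did 10499973 and 10499977.

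Those 4 rows had the largest difference of the family. Rows 10499971 and 10499975 had 3.4 and 3.4 in siLin28a, against 3.0 and 2.9 in siGFP and 3.2 and 3.3 in untreated arrays. Rows 10499973 and 10499977 had 4.0 and 4.0 in siLin28a, against 3.6 and 3.5 in siGFP and 3.6 and 3.9 in untreated arrays. The siLin28a arrays were above all others in each, by 0.1, and the log2 fold change over siGFP was 0.45 (SE 0.12 and 0.14).

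Tdpoz2 has 2 rows of its own. Row 10493999 had 4.0 and 4.1 in siLin28a, against 3.7 and 3.7 in siGFP and 3.5 and 3.9 in untreated arrays. Row 10499961 had 4.3 and 3.8 in siLin28a, against 3.7 and 3.7 in siGFP and 3.3 and 3.8 in untreated arrays. Both were higher than siGFP by 0.35 (SE 0.16 and 0.23), but in the second row siLin28a replicate 2 equalled untreated replicate 2.

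The row that holds Tdpoz4 and Tdpoz8 ran the other way. It had 3.4 and 3.2 in siLin28a, against 3.4 and 3.7 in siGFP and 2.9 and 3.2 in untreated arrays, a difference of -0.25 from siGFP (SE 0.17) with overlap at 3.4. The 3 remaining rows, of Tdpoz8, Tdpoz3 and Tdpoz1, lay between 2.5 and 4.3 in the 6 arrays and differed between siLin28a and siGFP by 0.10, 0.25 and 0.00.

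**Figure D2:**
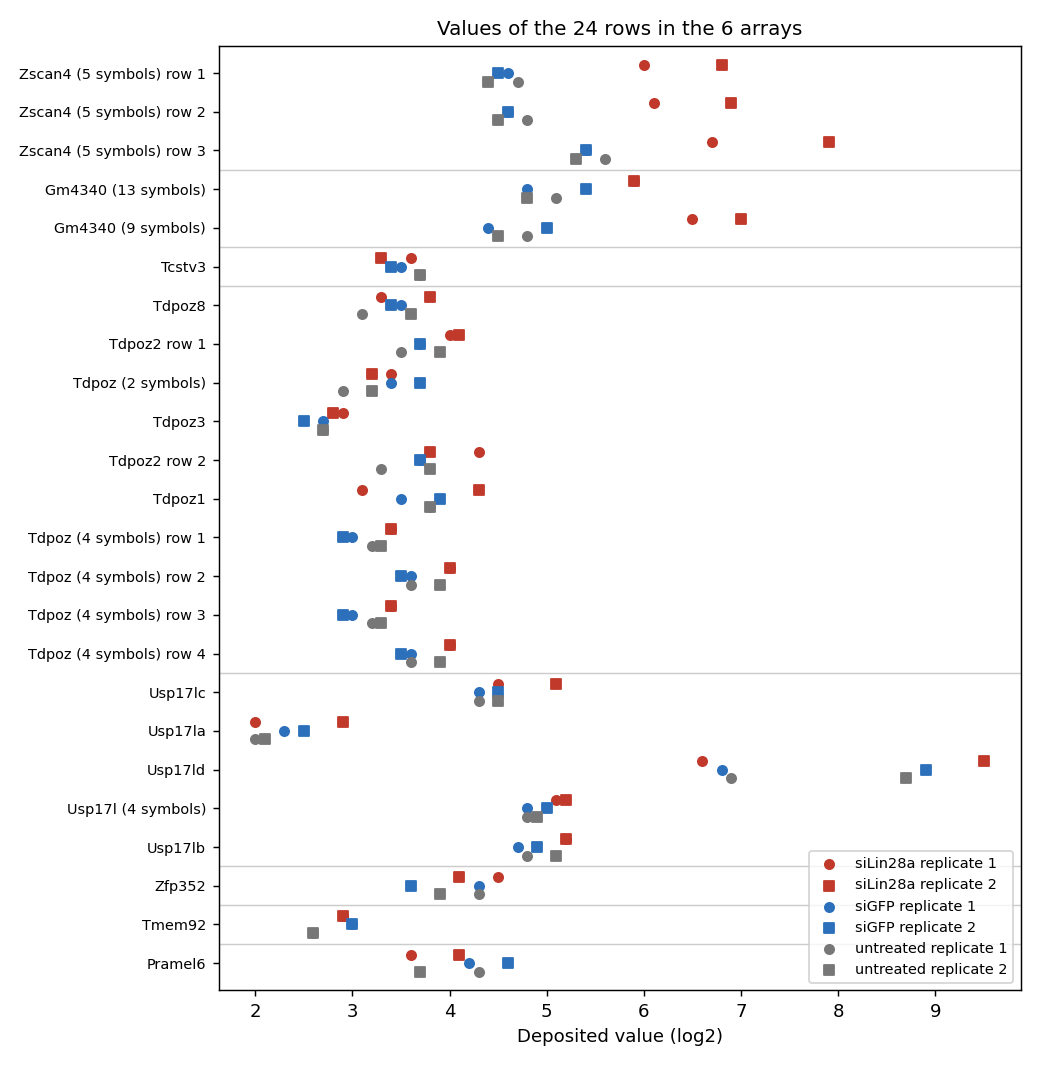
Deposited values (horizontal axis, log2) of all 24 rows in siLin28a, siGFP and untreated arrays, with circles for replicate 1 and squares for replicate 2. A square hides the circle of its group where both arrays had the same value. The siLin28a points stand clear of the others in the Zscan4 rows and the Gm4340 row with 9 symbols, and the circles and squares of Usp17ld form separate clusters, at 6.6 to 6.9 and 8.7 to 9.5.

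The Usp17l genes encode deubiquitinating enzymes of the DUB family and lie on chromosome 7. All 5 rows were higher in siLin28a than in siGFP cells, by 0.05 to 0.40 on the log2 scale, and in 2 of them both siLin28a arrays were above both siGFP arrays, where 9.03% of all tested rows were. Nothing is read from this count either. Usp17lb had 5.2 and 5.2 in siLin28a, against 4.7 and 4.9 in siGFP and 4.8 and 5.1 in untreated arrays. Usp17lc had 4.5 and 5.1 in siLin28a, against 4.3 and 4.5 in siGFP and 4.3 and 4.5 in untreated arrays. The siLin28a arrays of Usp17lb were above the 4 others, those of Usp17lc met them at 4.5, and both genes differed from siGFP by 0.40 (SE 0.15 and 0.22).

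Usp17la had 2.0 and 2.9 in siLin28a, against 2.3 and 2.5 in siGFP and 2.0 and 2.1 in untreated arrays, with a log2 fold change over siGFP of 0.05 (SE 0.29). Its siLin28a arrays lay on both sides of the siGFP ones, and all its values were below the array medians. The row with 4 symbols, Usp17la, Usp17lc, Usp17ld and Usp17le, stayed between 4.8 and 5.2 in the 6 arrays and was higher in siLin28a by 0.25 (SE 0.13).

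The row that carries Usp17ld alone differed far more between replicates than between groups. It had 6.6 and 9.5 in siLin28a, against 6.8 and 8.9 in siGFP and 6.9 and 8.7 in untreated arrays. Replicate 2 was above replicate 1 in every group, by 2.9 in siLin28a, 2.1 in siGFP and 1.8 in untreated cells. No other of the 23410 rows had replicate 2 above replicate 1 by at least 1.8 in all 3 groups (1 row, 0.00427%), and 3 rows (0.0128%) did by at least 1.0. The log2 fold change of siLin28a over siGFP was 0.20 (SE 1.14), and it lay between -1.25 and 1.65 when any 1 of those arrays was left out. The labels do not say what the replicate numbers stand for. The other 4 Usp17l rows had gaps between replicates of at most 0.9. Among them, the row with 4 symbols, which also carries Usp17ld, had gaps of 0.1 in siLin28a, 0.2 in siGFP and 0.1 in untreated cells.

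**Figure D3:**
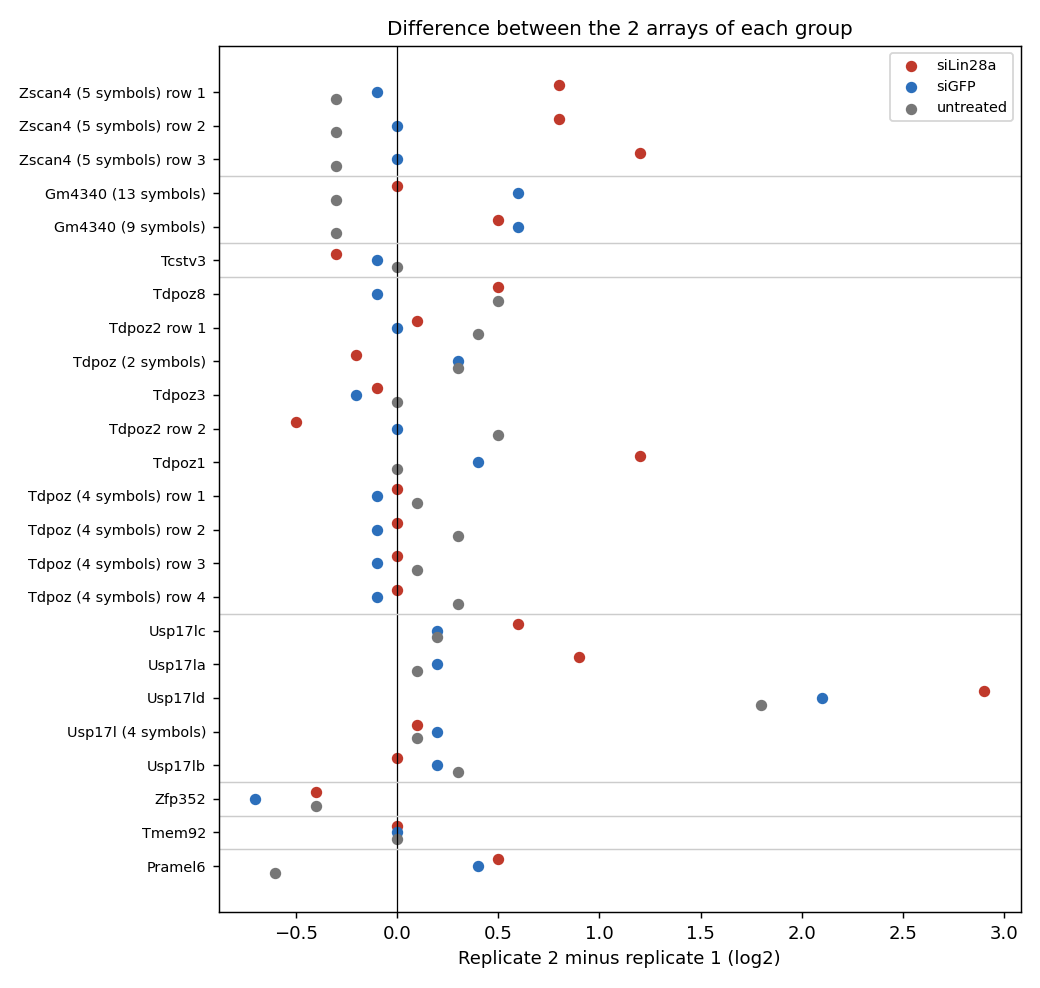
Replicate 2 minus replicate 1 (horizontal axis, log2) of the 24 rows within siLin28a, siGFP and untreated cells. Usp17ld stands at 2.9, 2.1 and 1.8, and the Zscan4 rows at 0.8, 0.8 and 1.2 in siLin28a but at -0.3 in untreated cells.

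The RefSeq window of Usp17ld (GRCm38.p6, chr7:103252456-103252755, minus strand) is shown for comparison with Zscan4c, since both hold TATAAAA (capitals), here 103 bases before the start. Windows of Usp17la, Usp17lb, Usp17lc and Usp17ld were between 87.3% and 96.8% identical.
Usp17ld promoter: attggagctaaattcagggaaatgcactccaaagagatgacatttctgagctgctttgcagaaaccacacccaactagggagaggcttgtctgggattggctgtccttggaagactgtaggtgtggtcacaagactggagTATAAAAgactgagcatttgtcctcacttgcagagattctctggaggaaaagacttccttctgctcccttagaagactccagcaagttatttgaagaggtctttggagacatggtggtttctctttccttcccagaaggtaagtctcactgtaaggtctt

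The 4 genes with 1 row each differed by at most 0.55 on the log2 scale between siLin28a and siGFP cells. All their values were below the array medians and are not shown to be above background. Zfp352, a zinc finger gene of the early embryo, had 4.5 and 4.1 in siLin28a, against 4.3 and 3.6 in siGFP and 4.3 and 3.9 in untreated arrays. Its groups overlapped, with 0.35 over siGFP (SE 0.28). Tcstv3 had 3.6 and 3.3 in siLin28a, against 3.5 and 3.4 in siGFP and 3.7 and 3.7 in untreated arrays, and its difference between siLin28a and siGFP was 0.00 (SE 0.14).

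Tmem92, a membrane protein gene that is a known 2-cell-like marker, had 2.9 and 2.9 in siLin28a, against 3.0 and 3.0 in siGFP and 2.6 and 2.6 in untreated arrays. Both siRNA groups were above untreated cells, and siLin28a was below siGFP by 1 step of the deposited values, at -0.10 (SE 0.11). Pramel6, a PRAME family gene known from naive ES cells, had 3.6 and 4.1 in siLin28a, against 4.2 and 4.6 in siGFP and 4.3 and 3.7 in untreated arrays. Its difference from siGFP of -0.55 (SE 0.27) was the lowest of the 24 rows, and the siLin28a arrays overlapped the untreated ones. It was -0.30 without siLin28a replicate 1, -0.80 without siLin28a replicate 2 and -0.35 without siGFP replicate 2.

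Over all 24 rows, 19 were higher in siLin28a than in siGFP cells, 3 were lower and 2 were equal, with a median log2 fold change of 0.35 beside 0.00 over all tested rows. The median depended on which rows were taken, at 0.20 over the 13 rows with 1 symbol and 1.05 over the 2 rows with a mean of at least 6. Those 2 were Usp17ld and Zscan4 row 10559978. The Zscan4 row had group means of 7.30 in siLin28a, 5.40 in siGFP and 5.45 in untreated cells. It passed only through siLin28a, so nothing is read from 1.05. Both siLin28a arrays were above both siGFP arrays in 14 rows, where 9.03% of all rows were, and below them in 2, where 11.8% were. A difference of at least 2-fold upward was found in 4 rows, the 3 of Zscan4 and 1 of Gm4340. Of all rows 0.0555% had one, 13 in number, and those 4 were the highest. The genes were chosen with this contrast in view, so nothing is read from these shares. Without Zscan4 and Gm4340, the other 19 rows had a median of 0.25, 14 were higher, 3 were lower and 2 were equal, and none reached 2-fold.

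**Figure D4:**
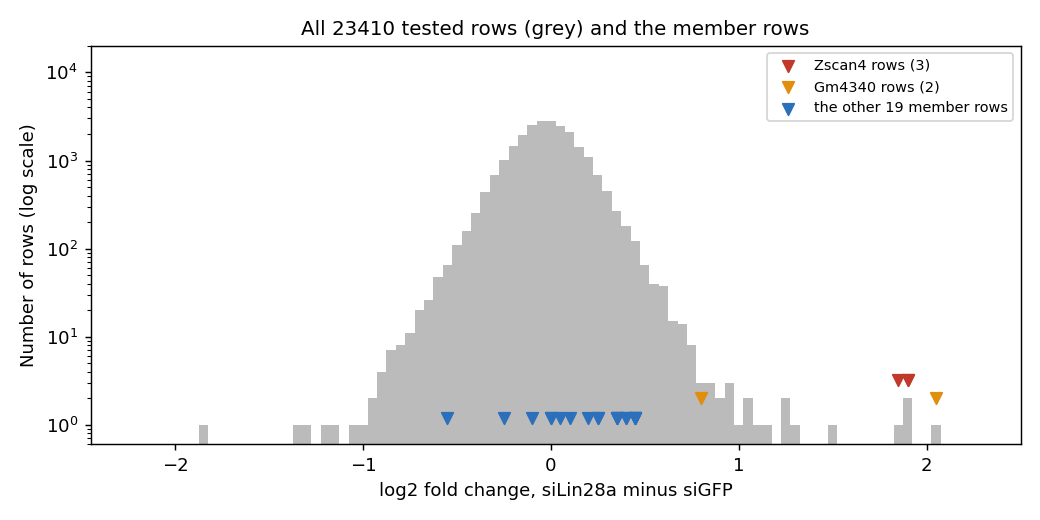
Distribution of the log2 fold change of siLin28a over siGFP (horizontal axis) for all 23410 tested rows (grey, number of rows on a log scale), with triangles for the Zscan4, Gm4340 and other 19 rows. The heights of the triangles carry no value. The 3 Zscan4 rows and 1 Gm4340 row lie at 1.85 to 2.05, and the other 19 between -0.55 and 0.45.

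Giving cells the control siRNA was compared with no siRNA. For siGFP over untreated cells the 24 rows had a median log2 fold change of 0.00 and a range of -0.30 to 0.50, with 10 higher, 11 lower and 3 equal. Both siGFP arrays were above both untreated arrays in 3 rows, where 9.22% of all rows were, and below them in 3, where 8.46% were. The largest differences were 0.50 (SE 0.17) for the row of Tdpoz4 and Tdpoz8, and 0.40 for Tmem92 (SE 0.11) and Pramel6 (SE 0.27). Usp17la was higher by 0.35 (SE 0.29), Tcstv3 lower at -0.25 (SE 0.14), and the lowest were the rows 10499971 and 10499975 of 4 Tdpoz genes at -0.30 (SE 0.12). Zscan4 and Gm4340 rows lay between -0.05 and 0.15, with overlap in all 5.

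The siLin28a arrays were also set against untreated cells. This comparison uses the same siLin28a arrays as the one with siGFP, so the values stand side by side and not as a repeat. Of the 24 rows 21 were higher and 3 lower, with a median of 0.25 beside 0.00 over all rows and a range of -0.25 to 2.10. Both siLin28a arrays were above both untreated arrays in 14 rows, where 11.1% of all rows were, and below them in 1, Tcstv3, where 12.6% were. Each Zscan4 row had a log2 fold change of 1.85 over untreated cells (SE 0.27, 0.27 and 0.37), and the Gm4340 rows had 2.10 (SE 0.26) with 9 symbols and 0.95 (SE 0.22) with 13. Tdpoz2 row 10499961 had 0.50 (SE 0.23) and the other rows lay between -0.25 and 0.40. Tmem92 was 0.30 over untreated cells but -0.10 over siGFP, and Pramel6 was -0.15 over untreated cells but -0.55 over siGFP.

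**Figure D5:**
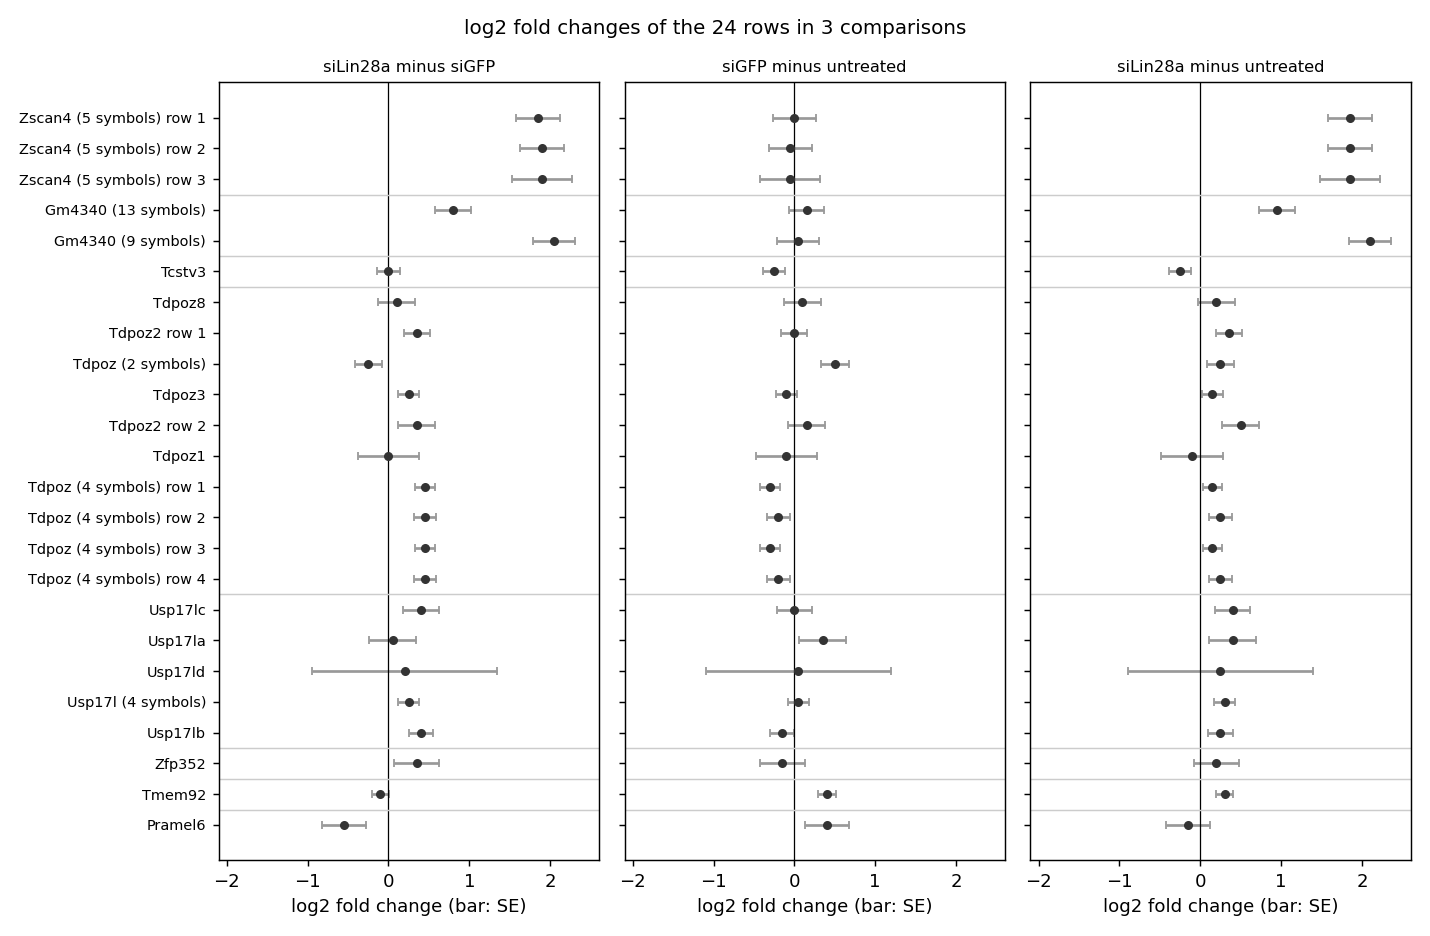
log2 fold changes (horizontal axis, points, with SE as bars) of the 24 rows for siLin28a over siGFP, siGFP over untreated and siLin28a over untreated cells. The Zscan4 rows stand at 1.85 to 1.90 in the panels with siLin28a and at -0.05 to 0.00 for siGFP over untreated, and the bar of Usp17ld (SE 1.14) is the widest.

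The rows whose pattern over the 6 arrays was most like that of Zscan4 were found by the mean absolute difference between values centred on their own mean, over 6 arrays, with the Zscan4 rows averaged. Among the 24 rows, the Gm4340 row with 9 symbols was nearest at 0.215 and the one with 13 symbols next at 0.441, while the others lay between 0.644 and 1.07. The search passed over predicted genes, Rik and other clone names and olfactory and vomeronasal receptors, which left 19143 other rows with 1 symbol and a median distance of 0.841. The nearest of these were Vrtn (0.285), Pim2 (0.344), Lef1 (0.344), Dnmt3b (0.352) and Bcl11a (0.352). The distance was not scaled, so it favours rows with a large siLin28a difference. These 5 were higher in siLin28a than in siGFP by 0.95 to 1.25. Nearness therefore largely restates the contrast known when the genes were chosen. Vrtn had 6.1 and 6.4 in siLin28a, against 5.2 and 5.2 in siGFP and 5.0 and 4.7 in untreated arrays. Dnmt3b, a de novo DNA methyltransferase, had 9.5 and 9.4 in siLin28a, against 8.4 and 8.2 in siGFP and 8.0 and 8.1 in untreated arrays. Its siLin28a pair lay close together, unlike that of Zscan4.

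Genes known to act on the 2-cell-like state were read from lists of 1 row per gene, and limma called none of them in any of the 3 comparisons. In this and every other list, a gene was counted only where a row carried its symbol alone. Of 8 genes listed as activators 5 had a row of their own. In siLin28a over siGFP cells 1 was higher and 4 lower, with a median of -0.20. Zfp281 was in this list and in these counts, but its place among activators is not certain. The others were Dppa2 and Gata2 at -0.20, Dppa4 at -0.15 and Nelfa at 0.20. Dppa2 had 9.9 and 10.4 in siLin28a, against 10.2 and 10.5 in siGFP and 10.7 and 10.3 in untreated arrays. It overlapped between groups, at -0.20 (SE 0.23). Zfp281, a zinc finger factor, had 7.1 and 8.7 in siLin28a, against 7.5 and 9.0 in siGFP and 9.5 and 9.1 in untreated arrays, a difference of -0.35 (SE 0.64) that was smaller than the gap between replicates. Without 1 array the difference lay between -0.45 and 0.05 for Dppa2 and between -1.15 and 0.45 for Zfp281. Dux was not analysed here.

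Of 31 listed repressors 30 had a row, and 5 were higher, 23 lower and 2 equal in siLin28a over siGFP cells. Their median was -0.10, beside -0.05 over the 10542 tested rows with a mean of at least 6. In 8 of the 30 both siLin28a arrays were below both siGFP arrays, where 11.8% of all tested rows were. That share includes dim rows, so nothing is read from it. Zfp42 (Rex1), which binds and represses MERVL elements, had 9.3 and 9.5 in siLin28a, against 10.0 and 10.2 in siGFP and 10.2 and 10.0 in untreated arrays, at -0.70 (SE 0.15). Tet2, an enzyme that oxidises methylated cytosine, had 6.3 and 6.7 in siLin28a, against 7.3 and 7.1 in siGFP and 7.8 and 7.4 in untreated arrays, at -0.70 (SE 0.20). Both siLin28a arrays were below the 4 others in each gene. Neither passed limma's test, with an adjusted p of 0.953 for both genes. After a further quantile normalization Zfp42 was at -0.62 and Tet2 at -0.66.

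Other genes of the 2-cell stage or with MERVL-driven transcripts did not share a direction where they had a row of their own. Of 44 listed 27 had such a row, 13 were higher, 11 lower and 3 equal in siLin28a over siGFP cells, and the median was 0.00. Listed genes found only on shared rows were left out, and the directions of those rows were not counted. Among them, the row of BB287469 and Gm4027 was higher by 1.30, and Gm6763 is on both Gm4340 rows. Gm5662 had 3.7 and 4.7 in siLin28a, against 2.4 and 3.0 in siGFP and 3.6 and 2.8 in untreated arrays. It was higher by 1.50 over siGFP (SE 0.42), the highest of any row outside the 24, although siLin28a replicate 1 and untreated replicate 1 differed by 1 step only. Obox6, an oocyte and early embryo homeobox gene, had 4.5 and 3.5 in siLin28a, against 5.6 and 5.0 in siGFP and 5.6 and 4.5 in untreated arrays, at -1.30 (SE 0.47). That difference was -1.80 without siLin28a replicate 1 and -0.80 without siLin28a replicate 2. Of 15 other PRAME family genes 5 had a row, with a median of 0.00, Pramel7 at -0.45 (SE 0.24) and Pramel1 at 0.15 (SE 0.16).

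Telomere and recombination genes, the setting in which Zscan4 is best known, showed no common direction. Of 19 listed 17 had a row, with 6 higher, 10 lower and 1 equal in siLin28a over siGFP cells and a median of -0.05. The largest were Dnmt3a at 0.45 (SE 0.24) and Blm, a helicase that resolves recombination intermediates, at -0.30 (SE 0.24).

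The cells carried ES cell markers, and these were lower in the arrays in which the Zscan4 rows were higher. All 10 ES cell markers were lower in siLin28a than in siGFP cells, with no call by limma. Their median was -0.275, beside -0.05 over the 10542 tested rows with a mean of at least 6. In 6 of the 10 both siLin28a arrays were below both siGFP arrays, where 11.8% of all tested rows were. That share includes dim rows, and the upper quartiles of the siLin28a arrays were lower, so nothing is read from it. Their mean level was 10.49 and 10.56 in siLin28a, against 10.75 and 10.94 in siGFP and 10.79 and 10.92 in untreated arrays. Nanog was lowest at -0.70 (SE 0.19), beside Zfp42. After a further quantile normalization they were at -0.60 and -0.62. The part of the ES cell markers in the Zscan4 and Gm4340 differences was not tested. The 10 feeder fibroblast markers averaged 4.60 and 4.47 in siLin28a, against 4.50 and 4.49 in siGFP and 4.47 and 4.62 in untreated arrays. The 10 primitive endoderm markers averaged 4.91 and 4.85 in siLin28a, against 4.82 and 4.82 in siGFP and 4.81 and 4.84 in untreated arrays. The 9 trophoblast markers with a row averaged 4.99 and 4.91 in siLin28a, against 4.96 and 4.90 in siGFP and 4.86 and 4.93 in untreated arrays. The siLin28a means were above the 4 others for primitive endoderm only, by less than 1 step of the deposited values, and overlapped them in the other lists. All 3 lists had a median difference of 0.05 between siLin28a and siGFP, and their part in the result was not tested. The largest differences within each list were Col3a1 at 0.25 and, tied in size with Fap at -0.15, Dcn at 0.15 for feeder fibroblasts, Cubn at 0.30 and Hnf4a at 0.20 for primitive endoderm, and Krt7 at -0.30 and Plac1 at 0.25 for trophoblast, none of them called.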

How the data were processed

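mRNA values of A3-1 cells (2 siLin28a, 2 siGFP, 2 untreated) were analysed. Per the submitters' processing notes, the authors processed the arrays by RMA (background correction, quantile normalization and a summary per probe set) in Affymetrix Expression Console. Versions and a build were not given in the sources used here. RMA writes log2 values, and the deposited log2 values come in steps of 0.1. No detection call was used, so a low value is not shown to be above background.

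Of 35556 rows, 23410 carried a symbol in the platform's annotation (21797 had 1, 1613 several) and were tested in R 4.3.3 with limma 3.58.1 (eBayes without a trend), all 6 arrays in 3 groups, with Benjamini-Hochberg adjustment and a threshold of 0.05. SE is limma's moderated standard error. The fit had 3 residual and 3.19 prior degrees of freedom, and was tested on simulated data with 200 changed rows. Labels do not say whether replicates were separate cultures, so p-values measure only the spread between these arrays. Precision is limited by the number of arrays.

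The genes followed, the gene lists and the naming rule were chosen with earlier results of these data known. Named were every Zscan4 row, in each other family the brightest row and the rows with the largest difference per comparison, Lin28a, the 2 list genes with the largest difference of siLin28a over siGFP, and the 5 rows most like Zscan4. Other genes were described as counts, ranges or, for small families, by name after their values were seen. Promoter windows came from RefSeq (GRCm38.p6), and identities from pairwise alignment with Biopython 1.88. Alternatives covered normalization, the prior, a filter on dim rows, rows with several symbols, a replicate block and leaving out each array.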

Additional observations from a re-analysis of the deposited data

How the results depend on the processing

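The count of rows called by limma stayed at 0 in all 3 comparisons under every alternative but the robust prior, which called 1 row for siLin28a over siGFP (Lin28a) and 7 for siLin28a over untreated cells (5 higher, 2 lower). With the replicate block it was 0 as well, with 1350, 1255 and 1933 rows at an unadjusted p under 0.05 for siLin28a over siGFP, siGFP over untreated and siLin28a over untreated cells.

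The median log2 fold change of the 24 rows for siLin28a over siGFP was 0.35. It was 0.20 over the 13 rows with 1 symbol, 0.25 with rows of the same symbols averaged (18), 1.05 with rows of a mean under 6 left out, which kept 2 of the 24, and 0.35 to 0.45 without 1 array. For siGFP over untreated cells it was -0.10 to 0.025 without 1 array. For siLin28a over untreated cells it was 1.05 with those rows left out and 0.15 to 0.40 without 1 array. The 2 rows kept by that filter were Usp17ld and Zscan4 row 10559978. The Zscan4 row passed only through its siLin28a arrays, so nothing is read from either value of 1.05. The replicate block left the medians at 0.35, 0.00 and 0.25. It could not change them, because every group holds 1 array of each replicate number. The labels do not say that a replicate number marks a shared culture or day. Across all rows, replicate 2 minus replicate 1 correlated between groups at 0.357 for siLin28a and siGFP, 0.154 for siGFP and untreated and -0.035 for siLin28a and untreated, so a deviation was shared by number in part but not by every pair of groups, and the numbers were not treated as pairs.

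Of 1164 values of the 42 named rows under alternatives, 1083 stayed within the spread between arrays and 81 moved by more. Part of the 1083 was fixed in advance. The replicate block (126 values) and the filter on dim rows (30 values) cannot change a difference between groups. Leaving out an array cannot change a comparison that does not use its group. The count of 1083 is therefore not read as a measure of stability. In 18 of the 24 rows the sign of siLin28a over siGFP was kept without any 1 array. The share over all tested rows was not computed, and rows with the same values or symbols are counted separately. Nothing is therefore read from the 18. Of the 24 rows, 2 had a mean of at least 6, and 2 arrays per group cannot resolve differences of a few steps.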
